A study of Homo sapiens with 4 samples.

Results

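MKI67, TPX2, KIF11 and MCM4, 4 genes that mark dividing cells, were examined by TRAP-seq of the human ATOH1 lineage. They were chosen by name, as genes of mitosis and DNA replication, with earlier results of these data known. They are 4 of the 1619 genes that could be named in the deposited transcript files. The cells derive from RUES2, a human embryonic stem cell line, and carry ATOH1-EGFP-L10a, a lentiviral transgene in which a human ATOH1 enhancer drives an EGFP-tagged L10a ribosomal subunit. They were grown to day in vitro 28 (DIV28). Dual SMAD inhibition (SB431542 and LDN-193189), CHIR99021, FGF2, BDNF and BMP7 were each given over a set span of days, not all up to DIV28. Puromycin was given too, and all libraries share these conditions. The 3 IP libraries hold mRNA attached to the tagged ribosomes, pulled down with the GFP antibodies 19C8 and 19F7 from independent differentiations, and the 1 input library, which the study's legend also calls unbound, was set against them. Transgenic lines were selected as clones, and the enhancer, not the ATOH1 protein, decides which cells carry the tag.

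Proliferation needs the genome to be copied in S phase and split in mitosis. Many of the genes for these steps are switched on only in cycling cells, and their mRNA is lost when a cell becomes a neuron. Granule cell progenitors are known for extensive division in the external granule layer of the cerebellum, where ATOH1 marks them. MCM4 encodes a subunit of the MCM helicase that unwinds DNA at replication forks. TPX2 encodes a protein that activates Aurora A kinase and nucleates spindle microtubules, and KIF11 encodes the kinesin that pushes the spindle poles apart. MKI67 encodes Ki67, a nuclear protein that covers mitotic chromosomes and serves as the standard label of cycling cells.

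The promoters are shown because many mitotic genes carry a CHR element (cell cycle genes homology region, letters TTTGAA), through which they are repressed in quiescent cells, often beside CCAAT boxes. RefSeq promoter windows (GRCh38.p14, 250 bases before to 50 after the start of the gene) were found for 2 of the 4 genes, MKI67 at chr10:128126374-128126673 on the minus strand and KIF11 at chr10:92592880-92593179 on the plus strand. They are printed from 5′ to 3′ along the gene, with every CHR and CCAAT match in capitals.
MKI67: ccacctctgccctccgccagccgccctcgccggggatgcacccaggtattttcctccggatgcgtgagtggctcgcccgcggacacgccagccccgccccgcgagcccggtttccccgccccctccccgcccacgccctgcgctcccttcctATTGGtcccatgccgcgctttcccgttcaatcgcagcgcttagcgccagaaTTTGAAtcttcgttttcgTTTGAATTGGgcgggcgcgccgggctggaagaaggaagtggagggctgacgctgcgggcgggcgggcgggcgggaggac
KIF11: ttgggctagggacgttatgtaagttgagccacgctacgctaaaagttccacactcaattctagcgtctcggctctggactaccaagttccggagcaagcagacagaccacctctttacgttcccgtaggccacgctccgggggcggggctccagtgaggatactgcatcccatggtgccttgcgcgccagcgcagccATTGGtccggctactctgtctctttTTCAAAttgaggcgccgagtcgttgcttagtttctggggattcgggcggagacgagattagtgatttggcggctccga
MKI67 has the CHR letters at 2 places, starting 47 and 29 bases before the start site, and KIF11 has them once, on the opposite strand (TTCAAA), starting 28 bases before it. Each window also holds CCAAT on the opposite strand (ATTGG), and in MKI67 the second of these overlaps a CHR match by 1 base. Both strands were searched, and of 35116 RefSeq windows of this length 15.2% hold TTTGAA and 34.6% hold CCAAT. Letters of an E2F site were searched too, as TTCCCGC in a first form, as TTCGCGC in another, as TTGCCGC or else as TTGGCGC. They occur in 13.0% of windows and not in these 2, which says only that the letters are not in them. TPX2 and MCM4 are named only.

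In GENCODE v44 on GRCh37, MKI67 spans positions 129894923 to 129924687 of chromosome 10 on the minus strand. KIF11 lies on the plus strand of the same chromosome, at 94333862 to 94415152. TPX2 lies at 30327074 to 30389608 of chromosome 20, and MCM4 at 48872745 to 48890720 of chromosome 8, both on the plus strand.

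The libraries held 34603230, 36860319 and 37719839 estimated reads in IP replicates 1, 2 and 3 and 41173019 in the input. The sample labelled input has a title that holds the tags T106 and T113, the other titles holding T106 alone, and the file with the tag T113 was deposited under a sample labelled IP. That file was taken as the input. With it, log2 ratios of 417 genes tied by mean count alone had r = 0.976 across genes with the study's table of fold changes, and r lay between -0.767 and -0.702 with each other library as input. ATOH1, the gene whose enhancer drives the tag, had 26.1, 36.0 and 33.2 CPM (reads scaled to a common library size, with TMM) in the IPs, while the input had 0.173 CPM, or 7 reads. A library named IP 1 here is the one deposited under the input label, and the directions of MKI67, TPX2, KIF11 and MCM4 turn with this choice.

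All 4 genes were lower in the IPs. Their mean IP levels stood at 29.5% to 41.1% of the input level, and all 3 IP libraries lay below the input for each gene. With a single input, p-values rest on the spread between the IPs, which the input is assumed to share. The test was edgeR's quasi-likelihood test over 43888 genes and transcripts with Benjamini-Hochberg adjustment, and all 4 genes passed at 0.05. Of all features tested 1.45% were called lower and 2.27% higher, and of the 1619 named genes 26.6% lower and 29.4% higher. All 3 IPs lay below the input in 33.5% of all features and 48.1% of the named genes. Genes could be named only where the study had called them, and by matching its log2 fold change with this same input. The direction of these 4 was thus set by the naming and is no independent evidence. Fewer cycling cells among those tagged and less of these mRNAs on the ribosomes of each cell cannot be told apart. Nor can a difference in starting material, since the input file alone carries the tag T113.

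**Figure D1:**
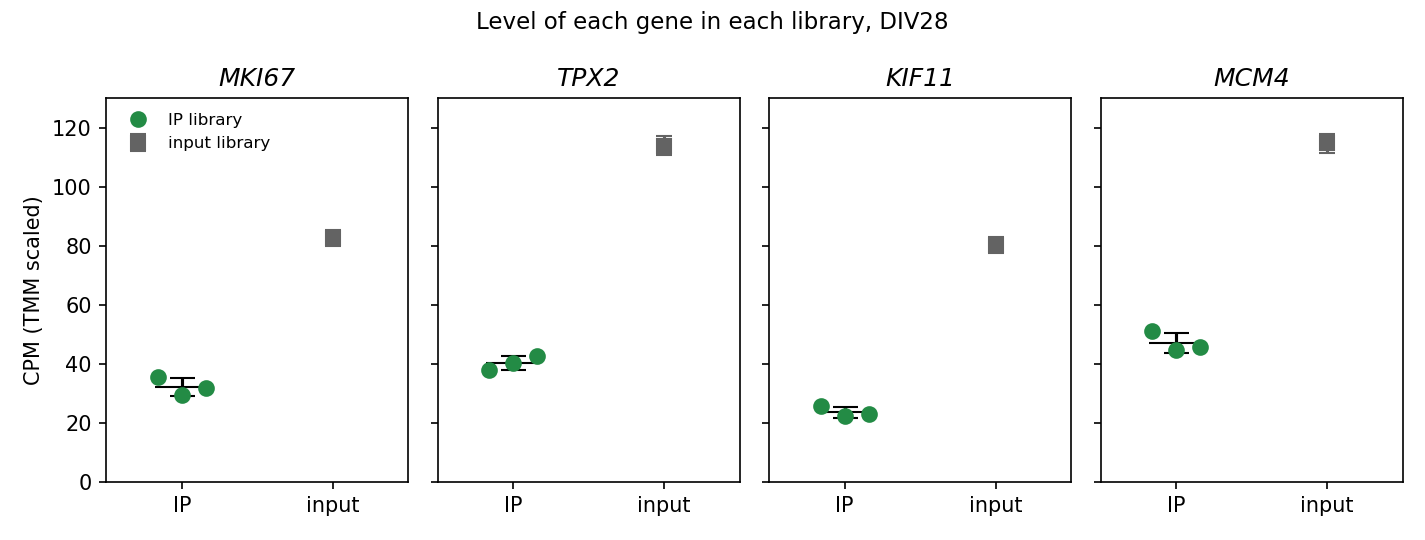
CPM with TMM scaling (vertical axis, from 0) of MKI67, TPX2, KIF11 and MCM4 at DIV28. Green circles are the 3 IP libraries with their mean and SD in black, and the grey square is the single input library with its 95% Poisson interval. KIF11 stands at 22.3 to 25.7 CPM in the IPs while the input stands at 80.2 CPM, and no IP library reaches the input in any of the 4 panels.

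MKI67 had 35.4, 29.4 and 32.0 CPM in IP replicates 1, 2 and 3 and 82.6 CPM in the input. The IPs differed among themselves by a factor of at most 1.21, while the input was 2.33 times the highest of them. The IP mean was 32.3 ± 3.04 CPM (SD, n = 3), which is 39.1% ± 3.68 (SD, n = 3) of the input. The log2 fold change of IP over input was -1.36 (standard error 0.16, adjusted p = 0.0397 from edgeR). Behind these levels stand 1269, 1084 and 1182 reads in the IPs, and 3342 for the input. The 95% Poisson interval of the input level, 79.8 to 85.4 CPM, covers counting error only. Per length, MKI67 was the scarcest of the 4 mRNAs in every library, with 3.43, 2.80 and 2.88 TPM (a level scaled by transcript length and library size) in the IPs, and the input had 9.91 TPM.

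The long transcript of MKI67, of 12495 bases, carried 97.3%, 94.9% and 95.3% of the gene's TPM in the IPs, and the input had 93.1%. A shorter transcript of 11415 bases differs from it by 1080 bases, the length of an exon of MKI67 in GENCODE. It drew 26.1 estimated reads in IP replicate 1, none in the other 2 IPs and under 1 in the input. The longest transcript thus dominated in all 4 libraries. Another, of 8075 bases, took 0.412%, 4.40% and 4.73% in the IPs, and the input had 6.09%.

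TPX2 had 37.8, 40.2 and 42.6 CPM in the IPs, and the input had 113.9 CPM. Relative to its mean, its IP spread was the tightest of the 4 genes. The IP mean was 40.2 ± 2.41 CPM (SD, n = 3), or 35.3% ± 2.12 (SD, n = 3) of the input. The log2 fold change was -1.503 (standard error 0.14, adjusted p = 0.0294 from edgeR). IP replicate 1, which was highest for the other 3 genes, was lowest for TPX2. In TPM it stood at 13.0, 13.5 and 13.5 in the IPs, and the input had 47.8. Its main transcript, of 3662 bases, carried 93.9% to 97.9% of the TPM in the IPs, and the input had 98.4%.

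KIF11 showed the largest difference of the 4 genes. It had 25.7, 22.3 and 22.9 CPM in the IPs, while the input had 80.2 CPM, which is 3.12 times the highest IP. The IP mean of 23.6 ± 1.84 CPM (SD, n = 3) was 29.5% ± 2.30 (SD, n = 3) of the input. The log2 fold change was -1.76 (standard error 0.16, adjusted p = 0.0296 from edgeR). KIF11 was measured on a single transcript of 5078 bases, with 922, 823 and 846 reads in the IPs, and the input had 3247.

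MCM4, the replication gene among the 4, had the smallest difference. It had 51.0, 44.5 and 45.8 CPM in the IPs, and the input had 114.6 CPM. The IP mean of 47.1 ± 3.42 CPM (SD, n = 3) was 41.1% ± 2.98 (SD, n = 3) of the input, and the log2 fold change was -1.28 (standard error 0.14, adjusted p = 0.0364 from edgeR). In TPM it stood at 13.2, 11.2 and 10.9 in the IPs, and the input had 36.0. A transcript of 4799 bases carried 98.3% to 100.0% of this in the IPs, and the input had 96.9%.

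The order of the mRNAs per length was nearly the same on both sides. In the IPs TPX2 had 13.3 ± 0.268 TPM, MCM4 11.8 ± 1.26, KIF11 5.57 ± 0.628 and MKI67 3.04 ± 0.342 (SD, n = 3 each). TPX2 and MCM4 were not separated beyond their spread there, since MCM4 was above TPX2 in IP replicate 1 and below it in the other 2. In the input TPX2 led with 47.8 TPM, followed by MCM4 with 36.0, KIF11 with 23.8 and MKI67 with 9.91. Summed, the 4 genes had 36.0, 32.8 and 32.4 TPM in the IPs, and the input had 117.5 TPM. Among the named genes, MKI67 stood at the 5.2 to 6.5 percentile of TPM in the IPs and the 20.1 percentile in the input, and TPX2 at the 31.1 to 34.0 percentile and the 49.5 percentile.

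Ratios between the genes within a library do not depend on how libraries are scaled. The ratio of KIF11 to MCM4 TPM was 0.476, 0.472 and 0.471 in the IPs, and the input had 0.660. The 95% exact binomial interval of the input ratio, 0.631 to 0.691, lay above those of the IPs, which reached 0.516 at most and like it cover counting error only. The spindle motor was thus lower relative to the helicase subunit in each IP. The ratio of MKI67 to KIF11 was 0.545, 0.529 and 0.561 in the IPs, and the input had 0.416, again without overlap. MKI67 and MCM4 kept a closer ratio, at 0.259, 0.2497 and 0.264 in the IPs, and the input had 0.275, whose interval of 0.263 to 0.288 overlaps those of the IPs. Ratios to TPX2 were uneven among the IPs themselves, with TPX2 to MCM4 at 0.986, 1.20 and 1.24 in the IPs, and the input had 1.33. With 3 libraries against 1, no exact permutation test of a ratio can go below a one-sided p of 0.25.

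**Figure D2:**
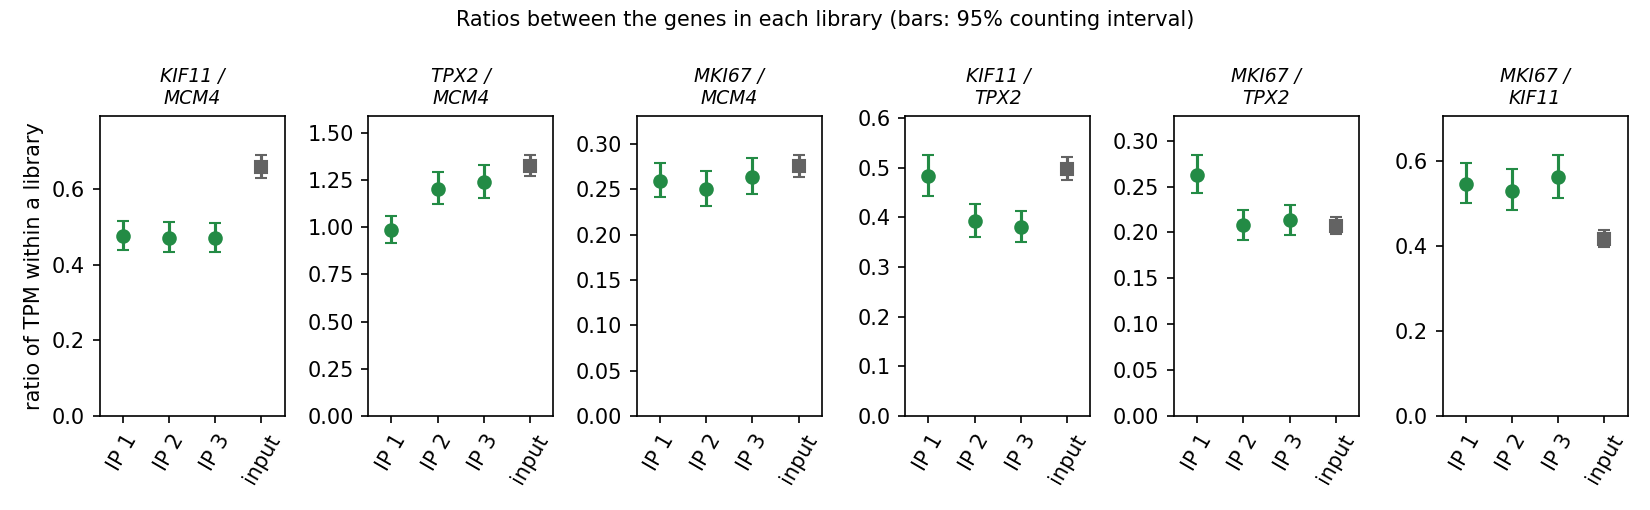
Ratio of the TPM of 2 genes within each library (vertical axes, each from 0), for 6 pairs of MKI67, TPX2, KIF11 and MCM4. Green circles are the 3 IP libraries, the grey square is the input, and bars are 95% exact binomial intervals of the reads. KIF11 over MCM4 is at 0.471 to 0.476 in the IPs against 0.660 for the input, while for MKI67 over MCM4 the input's interval overlaps those of the IPs.

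The other genes of the cell cycle were taken from 2 published lists for scoring cell cycle phase, of 54 G2 and M phase genes and 43 S phase genes. Of the G2 and M phase list 12 genes could be named, MKI67, TPX2 and KIF11 among them. Of these 9 were lower, none was higher and 3 did not pass, with a median log2 fold change of -1.52. Of the S phase list 7 could be named with MCM4, and 5 were lower, none higher and 2 did not pass, with a median of -1.24. The median was 0.83 over all 1619 named genes and 0.10 over all features tested. Since the study had called every one of these genes, the counts describe them and are not evidence for the lists. Without the 4 genes, 10 of 15 were lower, with a median of -1.37. Beside these counts, 26.6% of all named genes and 1.45% of all features were called lower. Among named genes of 4000 bases or more it was 42.6%.

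CKAP5, a microtubule polymerase of the spindle, had the most negative value of the G2 and M phase genes, with a log2 fold change of -1.87 (37.01 ± 2.00 CPM over the IPs, SD, n = 3, against an input of 135.5 CPM). The spindle checkpoint kinases TTK and BUB1 were lower, with log2 fold changes of -1.64 and -1.62. The other named kinesins of mitosis, KIF2C and KIF20A, had -1.54 and -1.53 and passed. CBX5 and LBR, which encode a heterochromatin protein and a receptor of the inner nuclear membrane and serve outside mitosis too, were lower as well, at -1.20 and -0.78. ANLN, DLGAP5 and NCAPD2 did not pass, at -1.78, -1.37 and -1.24, and their IPs were more spread, NCAPD2 with 49.9 ± 14.1 CPM (SD, n = 3) against 117.6 CPM in the input.

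Among the S phase genes, UHRF1, which maintains DNA methylation at replication, and DTL, a substrate adaptor of a ubiquitin ligase at replication forks, were lower, with log2 fold changes of -1.79 and -1.53. The ribonucleotide reductase subunits RRM2 and RRM1 were lower, at -1.24 and -1.08. MCM2, the only other MCM helicase subunit of 6 that could be named, averaged 54.8 ± 8.21 CPM (SD, n = 3) over the IPs against an input of 109.9 CPM, and missed the threshold (log2 fold change -1.01, adjusted p = 0.0833 from edgeR). None of 16 cyclin, CDK, E2F and related driver genes could be named, so they were not analysed here.

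Genes of leaving the cell cycle lay on both sides. Of the 12 on the list, the 3 that could be named all rose in the IPs. The CDK inhibitor gene CDKN1C rose by 2.40 on the log2 scale, GADD45G by 3.91 and BTG1, an antiproliferative gene, by 1.08. CDKN2B and CDKN2A, CDK inhibitor genes that the list leaves out, had log2 fold changes of -4.09 and -2.15. Of 20 rhombic lip and progenitor genes, 11 could be named, of which 10 were higher and none lower. Among all named genes 29.4% were called higher, and the study had called each gene of these lists.

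**Figure D3:**
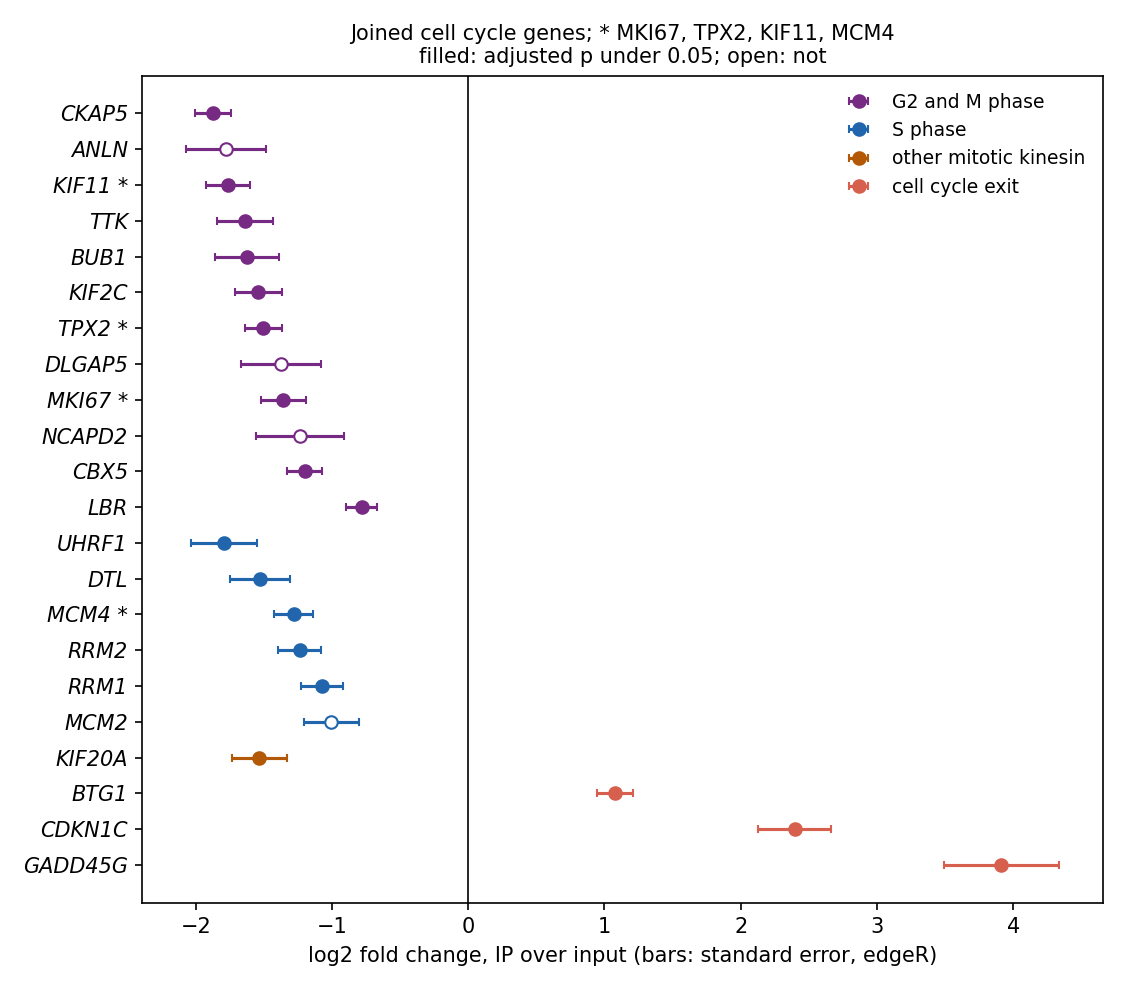
Log2 fold change of IP over input (horizontal axis) for named genes, with 3 IP libraries and 1 input library. The genes come from the G2 and M phase, S phase, mitotic kinesin and cell cycle exit lists. Bars are standard errors derived from edgeR's F statistic, and 1 S phase gene that did not pass is left out. Filled points passed at an adjusted p of 0.05 and stars mark MKI67, TPX2, KIF11 and MCM4. All genes of the first 3 lists lie below 0, between CKAP5 at -1.87 and LBR at -0.78. The 3 named genes of the exit list lie above it, and CDKN2A and CDKN2B, outside that list, are not plotted.

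Genes whose 3 log2 ratios of IP to input were nearest to those of each gene were sought among 1370 others with at least 10 CPM in the input, by root mean square difference over the 3 IPs. For TPX2 they were CAPRIN1 (0.02), KIF2C (0.05), GFPT1, OGDH and GYS1, and for MCM4 they were COL9A2 (0.02), DNM2, TTL, FHL1 and BUB1B, a spindle checkpoint gene. For MKI67 they were TTL (0.04), COL9A2, JAG1 and PREPL, and MCM4 came in place 7 at 0.08. For KIF11 they were SEC61A1 (0.07), VAT1L, TNFRSF10D, HMGXB3 and SPOCK1. KIF2C is the mitotic kinesin gene named above. The nearest of the other 3 to KIF11 was TPX2, in place 127 at 0.30.

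Transcript length moved with the fold change. Over the named genes, Spearman's rho between average effective length and log2 fold change was -0.427 (n = 1619 genes, which share the same 4 libraries), and over all features it was -0.121. The 366 named genes of 4000 bases or more had a median log2 fold change of -1.20, and the 1253 shorter ones 0.96. MKI67, KIF11 and MCM4 are among the long ones, with effective lengths of 12090, 4829 and 4551 bases in the IPs, and TPX2 with 3417 bases is not. Of the long named genes 42.6% were called lower. The part of length in the difference was not tested. In TPM the gap was wider than in CPM for all 4 genes, TPX2 included. On library totals without TMM the log2 fold changes were instead smaller in size than with it. They were -1.32 for MKI67, -1.47 for TPX2, -1.73 for KIF11 and -1.25 for MCM4. The cause of the wider gap in TPM was not tested. IP levels in TPM were 23.4% ± 2.64 (SD, n = 3) of the input for KIF11, 27.9% ± 0.560 for TPX2, 30.6% ± 3.45 for MKI67 and 32.7% ± 3.49 for MCM4.

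**Figure D4:**
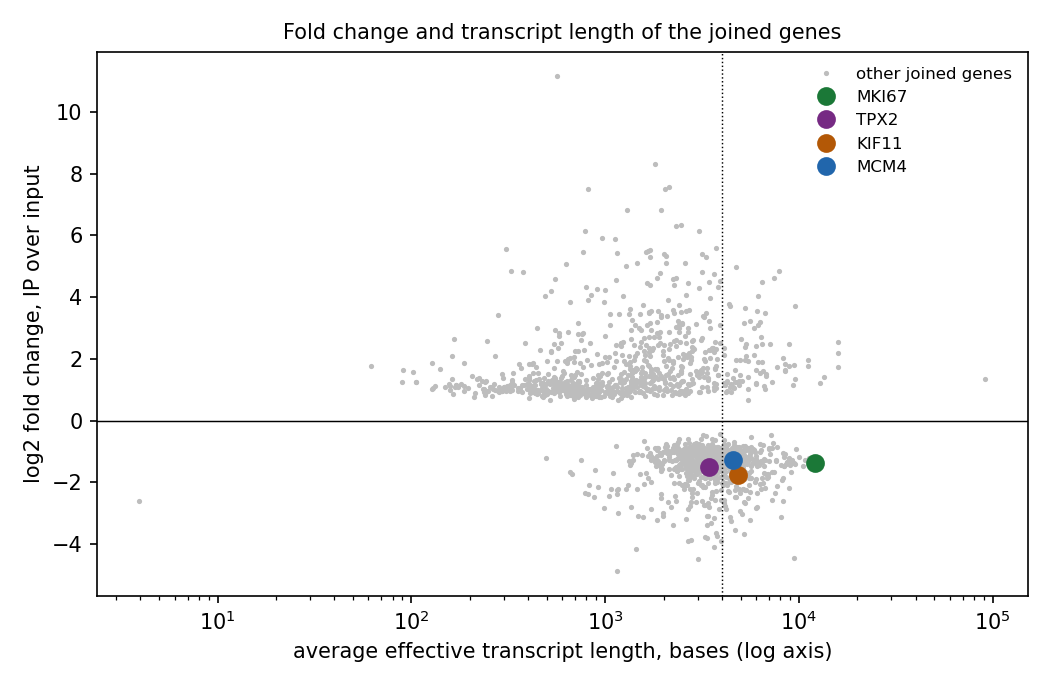
Log2 fold change of IP over input (vertical axis) against average effective transcript length in bases (log axis) for the 1619 named genes, in grey, with MKI67, TPX2, KIF11 and MCM4 in colour. The dotted line stands at 4000 bases. MKI67 is among the longest genes plotted, at a log2 fold change of -1.36, and the genes to the right of the line have a median of -1.20.

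Marker lists of further cell types held genes that moved as well. Of 14 mesenchymal genes 3 could be named, with 2 lower and 1 that did not pass, and their summed level was 1198 to 1310 CPM in the IPs, and the input had 3513 CPM, of which COL1A1 made up 2878 CPM. Of 16 neural stem cell and glial genes 6 could be named, with 2 lower (TNC and SOX9), 2 higher (SOX2 and CLU) and 2 that did not pass (S100B at -1.59 and FABP7 at 1.75), and a median log2 fold change of -0.28. Their sum was 461 to 484 CPM in the IPs against 1478 CPM in the input, of which TNC made up 1058 CPM. Of 14 endothelial genes 2 could be named, and they lay on opposite sides. ADGRL4 was lower, with 66.5 ± 2.43 CPM (SD, n = 3) over the IPs against an input of 691.1 CPM. CLDN5 had 21.6 ± 8.34 CPM (SD, n = 3) over the IPs against an input of 0.618 CPM, a log2 fold change of 5.12 that did not pass. Their sum of 79.0 to 98.1 CPM in the IPs, and of 691.7 CPM for the input, is therefore mostly that of ADGRL4. Of 15 genes of young neurons 10 could be named and 8 were higher, beside 29.4% of all named genes. No named gene of these lists was at 0 in any library. The part of these cell types in the levels of MKI67, TPX2, KIF11 and MCM4 was not tested.

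The direction of all 4 genes held in 12 of the 13 other settings, and all 4 calls held in 8 of them. Those 12 keep the input with which the genes were matched to the study's fold changes. The direction there is therefore no independent support. Without IP replicate 1, 2 or 3, no feature passed edgeR's test, and the adjusted p of the 4 genes lay between 0.108 and 0.201 with log2 fold changes between -1.83 and -1.26. With limma-voom it lay between 0.0666 and 0.0692. When the library labelled input was used as such, the log2 fold changes were 0.44 for MKI67, 0.80 for TPX2, 0.70 for KIF11 and 0.42 for MCM4, with an adjusted p of 1 for each from edgeR.

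**Figure D5:**
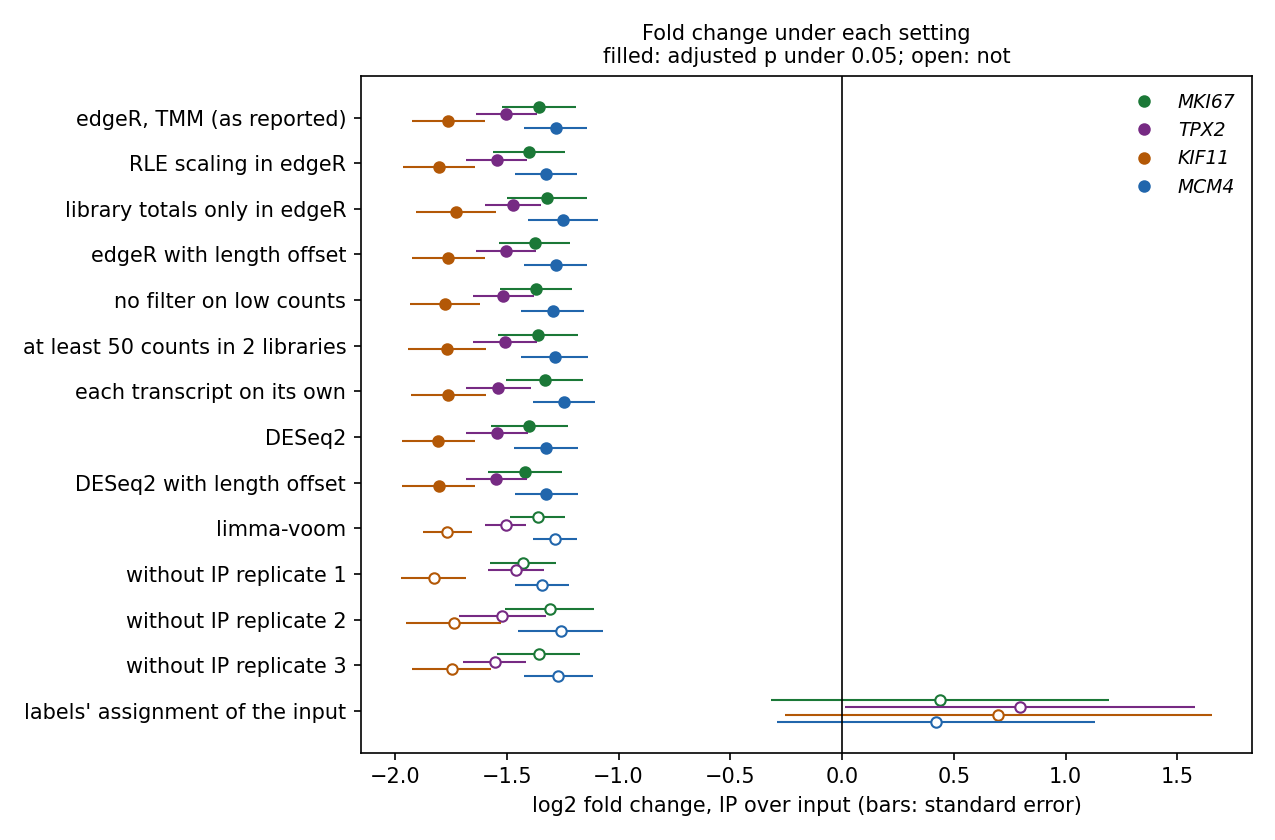
Log2 fold change of IP over input (horizontal axis, bars are standard errors) of MKI67, TPX2, KIF11 and MCM4 under each setting, down the page. Filled points passed at an adjusted p of 0.05. KIF11 is at -1.83 to -1.73 and MCM4 at -1.34 to -1.24 in all settings but the labels' assignment, where all 4 lie above 0 and none passes.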

How the data were processed

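TRAP-seq libraries were made by the authors with SMART-Seq v4 and Nextera XT and read as single reads. The authors quantified them with Salmon 0.8.2 against UCSC hg19 known gene transcripts. Each deposited file lists 69548 transcripts with their estimated counts and TPM and no gene symbol. The members and lists were chosen with earlier results of these data known. The phase lists are those shipped with the Seurat package, the others were written from general knowledge.

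Runs of 1 to 20 neighbouring transcripts were tied to a symbol where their summed mean count fell within 2% and their log2 fold change within 1e-05 of a gene in the study's table. This named 1619 genes, 465 on 1 transcript. After random shifts of the fold changes the same search named 26. Of that table, 1997 genes were available here and 17970 were not. MKI67, TPX2, KIF11 and MCM4 rest on 4, 2, 1 and 2 transcripts.

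Named genes were summed, other transcripts kept singly, and counts rounded. Libraries were scaled by TMM and features filtered by filterByExpr (minimum count 10) in edgeR 4.0.16 (R 4.3.3). The quasi-likelihood test followed, adjusted by Benjamini-Hochberg, at a threshold of 0.05. Its standard errors were derived, as the absolute log2 fold change over the square root of the F statistic. Functions were tested on simulated data with a dispersion (squared coefficient of variation) of 0.02. The common coefficient of variation of the real data was 0.948, so the simulated data were less spread. Alternatives were RLE scaling, library totals, DESeq2 1.42.0 and a length offset, limma-voom (limma 3.58.1), filters, single transcripts, leaving out each IP and the labels' assignment. The genes named are MKI67, TPX2, KIF11 and MCM4, the named members of the cell cycle lists, ATOH1, and the 5 nearest genes per member, less 2 genes that are not reported here. Beside these, CDKN2A and CDKN2B are named from outside the lists, and marker genes are given for the lists of further cell types. Intervals are at 95%.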

Additional observations from a re-analysis of the deposited data

How the results depend on the processing

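The calls depend on all 3 IP libraries and on the tool. Without IP replicate 1, 2 or 3 the counts of the 4 genes, of G2 and M phase genes, of S phase genes and of all features lower or higher were 0 to 0, while 3257, 3130 and 3668 features were lower and 4203, 3574 and 4270 higher at an unadjusted p under 0.05. With limma-voom each of these counts was 0 (6430 lower and 3797 higher unadjusted), and each was 0 as well when the library labelled input served as input (229 and 1040). In both the leave-one-out fits and limma-voom all 4 genes had an unadjusted p under 0.05. The labels' assignment reversed all 4, to log2 fold changes of 0.4371 for MKI67, 0.7961 for TPX2, 0.6993 for KIF11 and 0.4218 for MCM4. DESeq2 called 4029 features lower and 5829 higher, and with the length offset 4052 and 5860. At least 50 counts in 2 libraries gave 1135 and 1860. Without a filter 3 S phase genes were lower. The cause of these differences was not tested. In the other 9 settings the log2 fold changes lay between -1.81 and -1.24. As mean log2 ratios, TPM without a pseudocount gave -1.71, -1.84, -2.10 and -1.62 for MKI67, TPX2, KIF11 and MCM4, against -1.36, -1.50, -1.77 and -1.28 in CPM. No paired analysis was possible because there is a single input library. Each of the 4 genes had at least 823 reads in every library, and the part of depth in the lost calls was not tested.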
